A study of Homo sapiens with 18 samples.

Results

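A set of 32 human genes around the transcription factor ATF4 was followed after knockdown of BCAT1 in 3 established acute myeloid leukaemia cell lines. The set holds ATF4 and partner factors, the kinases and phosphatase subunit that act on eIF2, amino acid and redox targets of ATF4, and the enzymes of serine synthesis and of the folate (one-carbon) cycle. Transporters and tRNA synthetases were kept out of it. The genes were chosen by name, with earlier results of these data known. A probe was taken when its platform gene symbol was in the list, and the probe with the highest mean intensity over all 18 arrays stood for its gene. Of the 32 genes, 31 had such a probe among the 20046 genes named on the array, and HERPUD1 was not analysed here. All 31 passed the filter on dim genes (below), which 15291 of the 20046 genes passed.

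The groups were HL-60, SKM1 and MOLM13 cells with a lentiviral short hairpin RNA against BCAT1 (shBCAT1, labelled as hairpin 3 of its name), and the same lines with a non-targeting hairpin (shNT), at 3 arrays per group. BCAT1 is a transaminase of the cytosol that makes glutamate from alpha-ketoglutarate and the amino group of leucine, isoleucine or valine, and the comparison asks what follows from its loss in leukaemia cells. All groups carried a lentivirus and were sorted for transduced cells 48 h after transduction, the serum was 10% for HL-60 and 20% for SKM1 and MOLM13, and 200 ng of total RNA was labelled for a 1-colour Illumina BeadChip. One hairpin against BCAT1 was used, so every comparison is of that hairpin with shNT. The replicates are numbered 1 to 3 and nothing says that they came from separate cultures; p-values then cover only the spread between these arrays, which may be technical.

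When amino acids run short or unfolded protein builds up, kinases such as GCN2 (gene EIF2AK4) and PERK (gene EIF2AK3) phosphorylate the alpha subunit of the initiation factor eIF2. Most translation then slows while the ATF4 messenger RNA is translated more, and ATF4, paired with C/EBP factors, switches on genes of amino acid synthesis and redox defence. The serine pathway (PHGDH, PSAT1, PSPH) makes serine from a glycolytic intermediate, and its transaminase PSAT1 takes the amino group from glutamate. The SHMT enzymes pass a carbon from serine to folate, from which the MTHFD enzymes and TYMS supply purine and thymidylate synthesis. The arrays measure RNA only, so the translation of ATF4 and the phosphorylation of eIF2 were not measured.

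Array medians lay between 91.0 and 93.1 intensity units, and arrays of a group correlated with r between 0.989 and 0.997 across genes. The number of arrays limits the precision. BCAT1 itself had intensities of 137, 164 and 135 with shBCAT1, against 1473, 1476 and 1456 with shNT in HL-60 (log2 fold change -3.34, SE 0.08, limma adjusted p = 2.58e-18). In SKM1 they were 121, 133 and 127 with shBCAT1, against 1207, 1239 and 1217 with shNT (log2 fold change -3.27, SE 0.08, limma adjusted p = 4.40e-18). MOLM13 gave 150.4, 147 and 173 with shBCAT1, against 1046, 1022 and 1144 with shNT (log2 fold change -2.77, SE 0.08, limma adjusted p = 1.71e-16). The groups did not overlap in any line, as the hairpin labels say. All 6 myeloid markers that the array names lay above the median probe value in every group. Their sum in SKM1 was 10917 to 12139 with shBCAT1 against 22641 to 23554 with shNT, most of that gap being MPO (mean 2499 with shBCAT1 and 11689 with shNT), while SPI1 had means of 2197 with shBCAT1 and 2336 with shNT. In HL-60 it was 19946 to 20568 with shBCAT1 against 18109.9 to 19195 with shNT, and in MOLM13 22696 to 25154 with shBCAT1 against 17794 to 25037 with shNT. Summed lymphoid markers were 1773 to 2108 with shBCAT1 against 1398 to 1468 with shNT in HL-60, and in MOLM13 4039 to 5066 with shBCAT1 against 3686 to 4010 with shNT. Between 3 and 4 of the 6 lymphoid markers lay above the median, most of the sum being NKG7. Erythroid markers (2 to 4 of 6 above the median) summed to 515 to 582 over all groups, and of the epithelial markers 1 of 6 lay above the median in each group, with sums of 1618 to 1636 with shBCAT1 against 1819 to 1974 with shNT in SKM1. The part of these markers in the results was not tested. In bulk RNA, fewer cells of a type and less RNA per cell cannot be told apart.

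The arrays numbered 1 of MOLM13 stood apart for this set. With shBCAT1, replicate 1 was the lowest of its 3 arrays for 21 of the 31 genes (67.7%), against 35.3% of all genes tested. With shNT, replicate 1 was the lowest for 23 of the 31 (74.2%), against 39.4% of all genes. The MOLM13 results are therefore also given without these arrays. The spread was smaller in SKM1, whose median within-group SD over all genes was 0.0820 on the log2 scale, against 0.118 in HL-60 and 0.111 in MOLM13. Over the 31 genes alone it was 0.0937 in SKM1, 0.102 in HL-60 and 0.158 in MOLM13, so that for them SKM1 lay near HL-60 and MOLM13 was the widest. Since 1 spread per gene was estimated over all groups, this bears on the SKM1 calls below.

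The promoters of the genes were read for the C/EBP-ATF composite element, the letters TGATGNAA on either strand, at which C/EBP and ATF4 proteins are known to pair. Promoter windows (250 bases before and 50 from each RefSeq start, GRCh38.p14) were held for 26 of the 32 genes. The element lay in a window of 7 of these 26 genes (26.9%), against 4.46% of 27305 genes with a window. It lay in 5 of the 21 windowed genes that fell in at least 1 line. The element also lay in 2 of the 5 others, JDP2, which passed in no line, and HERPUD1, which had no probe and was not tested. The endoplasmic reticulum stress element, which joins CCAAT and CCACG over a gap of fixed length, was searched on both strands, holds no copy of the first, and was in none of the 26 and in 0.0916% of all genes. These matches describe letters, not bound sites, and the count was not tested. The 5 windows of genes that fell are shown because they hold the element, which is in capitals; the rest is in lower case, 5′ to 3′ on the strand of the gene. That of MTHFD1L is chr6:150866236-150866535 (plus strand; first base of the element at -129 from the start), and the same site lies in 3 overlapping windows of that gene. For ASNS the window is chr7:97872359-97872658 (minus strand, -68), and for ATF3 chr1:212565157-212565456 (plus, -191). For CHAC1 it is chr15:40953221-40953520 (plus, -209), where the element reads as its reverse complement, and for CEBPG chr19:33373863-33374162 (plus, -42).
MTHFD1L: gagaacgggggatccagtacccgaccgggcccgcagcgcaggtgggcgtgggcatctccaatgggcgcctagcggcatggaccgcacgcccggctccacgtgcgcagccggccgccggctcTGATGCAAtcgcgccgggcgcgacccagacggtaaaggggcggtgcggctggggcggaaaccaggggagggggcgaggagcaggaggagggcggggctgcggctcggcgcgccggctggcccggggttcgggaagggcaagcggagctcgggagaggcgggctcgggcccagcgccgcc
ASNS: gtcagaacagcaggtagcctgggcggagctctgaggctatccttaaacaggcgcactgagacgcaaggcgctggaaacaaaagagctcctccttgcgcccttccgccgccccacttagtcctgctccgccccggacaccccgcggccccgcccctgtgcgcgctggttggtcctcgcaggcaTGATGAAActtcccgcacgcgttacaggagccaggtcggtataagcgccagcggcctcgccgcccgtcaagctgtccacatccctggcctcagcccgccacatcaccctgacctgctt
ATF3: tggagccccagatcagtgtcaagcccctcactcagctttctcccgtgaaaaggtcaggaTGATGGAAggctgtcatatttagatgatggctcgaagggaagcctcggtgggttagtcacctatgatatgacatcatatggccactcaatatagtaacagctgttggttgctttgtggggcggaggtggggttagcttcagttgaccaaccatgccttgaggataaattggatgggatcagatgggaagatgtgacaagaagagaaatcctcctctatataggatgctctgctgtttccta
CHAC1: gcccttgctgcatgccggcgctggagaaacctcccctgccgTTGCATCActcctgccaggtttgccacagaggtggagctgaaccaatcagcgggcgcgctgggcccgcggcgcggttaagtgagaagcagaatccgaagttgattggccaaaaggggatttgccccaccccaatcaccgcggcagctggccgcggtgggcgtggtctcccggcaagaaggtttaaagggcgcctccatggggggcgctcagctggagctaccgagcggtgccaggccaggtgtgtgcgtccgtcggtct
CEBPG: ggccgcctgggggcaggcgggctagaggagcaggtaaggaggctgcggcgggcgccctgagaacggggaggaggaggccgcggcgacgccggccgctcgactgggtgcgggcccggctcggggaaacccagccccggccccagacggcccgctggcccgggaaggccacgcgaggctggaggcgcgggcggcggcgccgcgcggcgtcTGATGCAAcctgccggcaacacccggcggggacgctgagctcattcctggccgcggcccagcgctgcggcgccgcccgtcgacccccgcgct

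With shBCAT1 much of the set was lower in MOLM13 and HL-60 and little of it in SKM1. At an adjusted p under 0.05 (limma, adjusted over all 15291 genes), 21 of 31 genes fell in MOLM13, 15 did in HL-60 and 3 in SKM1, and none rose in any line. Over all genes tested, 10.7% fell and 10.3% rose in MOLM13, 8.87% fell and 10.0% rose in HL-60, and 6.49% fell and 4.67% rose in SKM1. Since the set was chosen with earlier results of these data known, the gap to these shares only describes it. At unadjusted p under 0.05, 8 genes of the set passed in SKM1. ATF5, EIF2S1, PPP1R15A and TRIB3 had positive log2 fold changes, and PYCR1, MTHFD1L, STC2 and VLDLR negative ones. The share of all genes at that threshold is not given here, so no background stands beside this count. The median log2 fold change of the set was -0.51 in MOLM13, -0.29 in HL-60, and close to 0 in SKM1 at 0.02, against 0.00 over all genes in each line. The genes that fell in all 3 lines were PYCR1, MTHFD1L and VLDLR (1.60% of all genes fell in all 3). EIF4EBP1, ASNS, CTH, CBS, PSAT1, MTHFD1 and STC2 fell in HL-60 and MOLM13. JDP2, NUPR1, EIF2AK3, EIF2AK4 and EIF2S1 passed in no line.

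Falls of at least 1.5-fold were fewer. In MOLM13 they were DDIT3, TRIB3, ASNS, PYCR1, CBS, PHGDH, PSAT1, MTHFD1, TYMS and VLDLR, 10 of 31 genes against 2.94% of all genes. In HL-60 they were EIF4EBP1, PYCR1, MTHFD1L, STC2 and VLDLR (all genes, 1.78%), and in SKM1 VLDLR alone (all genes, 1.74%). In the mean of the 3 lines 17 genes fell and EIF2S1 rose, where 14.1% of all genes fell and 13.9% rose. In the arrays themselves, the highest shBCAT1 array was below the lowest shNT array for 15 genes in MOLM13 (15.5% of all genes), 22 in HL-60 (13.9%) and 7 in SKM1 (17.4%). In SKM1, 8 genes lay above without overlap (ATF5, DDIT3, EIF2S1, PPP1R15A, TRIB3, ASNS, CHAC1 and MTHFD2; 15.9% of all genes), against 1 in each other line, where 14.5% did in HL-60 and 15.5% in MOLM13.

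**Figure D1:**
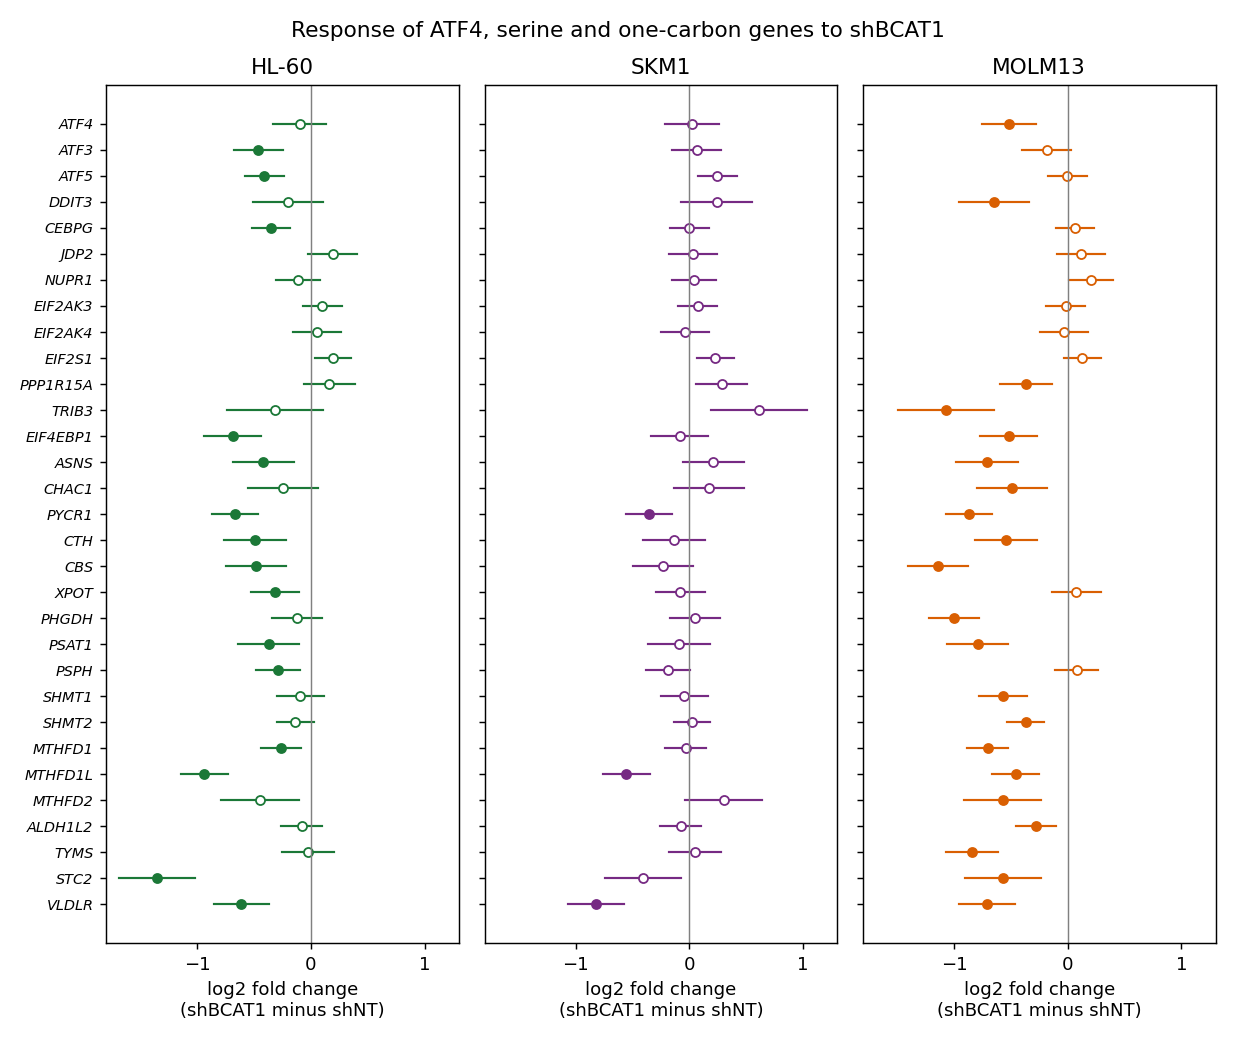
Log2 fold change (shBCAT1 minus shNT, horizontal axis) of the 31 genes in HL-60, SKM1 and MOLM13, in the order of their roles; bars are 95% intervals from limma, and filled points passed an adjusted p of 0.05. MOLM13 holds 21 filled points, HL-60 15 and SKM1 3, all of them left of 0.

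Of the 7 transcription factors, ATF4 and DDIT3 fell in MOLM13, and ATF3, ATF5 and CEBPG fell in HL-60; none passed in SKM1. ATF4 had intensities of 4298, 5003 and 5521 with shBCAT1, against 5641, 7511 and 8166 with shNT in MOLM13, without overlap (log2 fold change -0.51, SE 0.11, limma adjusted p = 0.00162). In HL-60 they were 9628, 9853 and 10678 with shBCAT1, against 9884, 10924 and 11516 with shNT, overlapping (log2 fold change -0.10, SE 0.11, limma adjusted p = 0.633). In SKM1 they were 6907, 7510.5 and 7401 with shBCAT1, against 6478, 7302 and 7701 with shNT (log2 fold change 0.03, SE 0.11, limma adjusted p = 0.952). The ATF4 messenger RNA was thus lower beyond the spread of the arrays in MOLM13 and did not pass in the others (HL-60, 95% interval -0.33 to 0.14; SKM1, 95% interval -0.21 to 0.26). A second, dimmer ATF4 probe gave log2 fold changes of -0.43 in MOLM13, 0.14 in SKM1 and -0.17 in HL-60. The dimmest ATF4 probe gave values between -0.10 and 0.08.

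DDIT3 encodes CHOP, a factor induced by ATF4. It had 183, 249 and 274 with shBCAT1, against 255, 452 and 415 with shNT in MOLM13 (log2 fold change -0.65, SE 0.15, limma adjusted p = 0.00262). The groups overlap there, since shBCAT1 replicate 3 lies above shNT replicate 1. In HL-60 the values were 672, 680.3 and 699.9 with shBCAT1, against 731, 783 and 852 with shNT, all shBCAT1 arrays lower, without passing (log2 fold change -0.20, SE 0.15, limma adjusted p = 0.418). In SKM1 they were 255, 219 and 229.9 with shBCAT1, against 203, 203 and 188 with shNT, all shBCAT1 arrays higher, also without passing (log2 fold change 0.24, SE 0.15, limma adjusted p = 0.413). ATF3, a stress-induced repressor of the same family, averaged 185 ± 5.01 (SD, n = 3) in HL-60 with shBCAT1, against 256 ± 21.3 (SD, n = 3) with shNT (log2 fold change -0.46, SE 0.11, limma adjusted p = 0.00230). ATF5, a related factor also translated under eIF2 phosphorylation, averaged 1813 ± 47.1 in HL-60 with shBCAT1, against 2423 ± 298 with shNT (SD, n = 3 each; log2 fold change -0.41, SE 0.08, limma adjusted p = 0.000758). CEBPG, a C/EBP partner of ATF4, averaged 926 ± 45.5 in HL-60 with shBCAT1, against 1179 ± 39.8 with shNT (SD, n = 3 each; log2 fold change -0.35, SE 0.08, limma adjusted p = 0.00296). JDP2, a repressor that binds the same family of sites, and NUPR1, a small stress-induced nuclear protein, had log2 fold changes between -0.11 and 0.21 over the lines. NUPR1 was dim, with single arrays between 90.3 and 157 units where the median of all probe values was 92.1.

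Among the genes that sense or relieve eIF2 phosphorylation, the kinases did not pass in any line. EIF2AK4 (GCN2, which senses uncharged tRNA) and EIF2AK3 (PERK, which senses unfolded protein) had log2 fold changes between -0.04 and 0.10. EIF2S1, the phosphorylated subunit itself, rose in the mean of the lines (log2 fold change 0.18, SE 0.04, limma adjusted p = 0.00276) but in no single line. Its shBCAT1 arrays lay above all shNT arrays in each line, for example 189.6, 179 and 184 with shBCAT1, against 159.7, 156 and 156 with shNT in SKM1. The gap was narrow in MOLM13, where the lowest shBCAT1 array had 196.0 and the highest shNT array 195.1. PPP1R15A (GADD34) guides a phosphatase to eIF2 and is induced by the pathway. It averaged 852 ± 37.2 with shBCAT1 against 1103 ± 104 with shNT in MOLM13 (SD, n = 3 each; log2 fold change -0.37, SE 0.11, limma adjusted p = 0.0173).

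TRIB3, a pseudokinase induced by ATF4 and CHOP that restrains them, had the widest range over the lines. In MOLM13 it had 512, 739.8 and 859 with shBCAT1, against 870.3, 1702 and 2034 with shNT, without overlap (log2 fold change -1.07, SE 0.20, limma adjusted p = 0.000388). In SKM1 it had 884, 860.3 and 954 with shBCAT1, against 520.2, 622 and 626 with shNT, with every shBCAT1 array higher but the test just missed (log2 fold change 0.61, SE 0.20, limma adjusted p = 0.0552). In HL-60 it had 2451, 3155 and 2908 with shBCAT1, against 3852, 3455 and 3249 with shNT (log2 fold change -0.31, SE 0.20, limma adjusted p = 0.338). EIF4EBP1 encodes 4E-BP1, a brake on cap-dependent translation that ATF4 is known to induce. Its intensities in HL-60 were 186, 189.5 and 178 with shBCAT1, against 286, 263 and 349 with shNT (log2 fold change -0.69, SE 0.12, limma adjusted p = 0.000176). MOLM13 had 268, 284 and 344 with shBCAT1, against 336, 461 and 497 with shNT, where shBCAT1 replicate 3 lies above shNT replicate 1 (log2 fold change -0.52, SE 0.12, limma adjusted p = 0.00272). SKM1 had 277, 247 and 251 with shBCAT1, against 283, 269 and 267 with shNT, with overlap (log2 fold change -0.08, SE 0.12, limma adjusted p = 0.814). EIF4EBP1 thus fell in HL-60 and MOLM13, and its groups overlapped in SKM1.

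Of the 6 amino acid and redox targets, 5 fell in MOLM13 (all but XPOT), 5 in HL-60 (all but CHAC1) and PYCR1 alone in SKM1. ASNS, asparagine synthetase, a standard ATF4 target, had 838, 888 and 1059 with shBCAT1, against 1123, 1625 and 1887 with shNT in MOLM13, without overlap (log2 fold change -0.71, SE 0.13, limma adjusted p = 0.000264). In HL-60 it had 3912, 3532 and 4368 with shBCAT1, against 5249, 5095 and 5385 with shNT, also without overlap (log2 fold change -0.42, SE 0.13, limma adjusted p = 0.0255). SKM1 had 3506, 3471 and 3739.8 with shBCAT1, against 3396, 2942 and 2935 with shNT, every shBCAT1 array being higher (log2 fold change 0.21, SE 0.13, limma adjusted p = 0.410). The shBCAT1 arrays of ASNS thus lay on opposite sides of the shNT arrays in SKM1 and in the other lines. A second ASNS probe gave log2 fold changes of -0.62 in MOLM13, 0.16 in SKM1 and -0.32 in HL-60.

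PYCR1, a mitochondrial enzyme of proline synthesis, fell in every line. It had 336, 361 and 325 with shBCAT1, against 688, 606 and 580.1 with shNT in MOLM13 (log2 fold change -0.87, SE 0.10, limma adjusted p = 5.11e-07). HL-60 gave 679, 607 and 636 with shBCAT1, against 933, 965 and 1157 with shNT (log2 fold change -0.66, SE 0.10, limma adjusted p = 2.01e-05), and SKM1 gave 660.1, 624 and 713 with shBCAT1, against 952, 845 and 757 with shNT (log2 fold change -0.35, SE 0.10, limma adjusted p = 0.0190). No line had overlapping groups. A pair of dimmer PYCR1 probes, at mean intensities of 108.8 and 97.1, did not follow, with log2 fold changes between -0.12 and 0.13. With the mean of all PYCR1 probes, the fall in SKM1 did not pass (log2 fold change -0.10, limma adjusted p = 0.349).

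CBS joins homocysteine and serine, the entry to cysteine synthesis. It had 248, 250.05 and 275 with shBCAT1, against 406, 637 and 702 with shNT in MOLM13 (log2 fold change -1.14, SE 0.13, limma adjusted p = 4.97e-07), the largest fall of the set in that line. HL-60 had 354, 396 and 387 with shBCAT1, against 515, 543 and 528 with shNT (log2 fold change -0.48, SE 0.13, limma adjusted p = 0.00792). In SKM1 it had 775, 828 and 882 with shBCAT1, against 1027, 945 and 948 with shNT, lower in every array without passing (log2 fold change -0.23, SE 0.13, limma adjusted p = 0.320). CTH, the next enzyme toward cysteine, fell in MOLM13 (log2 fold change -0.54, SE 0.13, limma adjusted p = 0.00398) and in HL-60 (log2 fold change -0.49, SE 0.13, limma adjusted p = 0.00919). The CTH groups overlap in MOLM13, where shBCAT1 replicate 3 (129.8) lies above shNT replicate 1 (127.7). The other shBCAT1 arrays there, at 99.5 and 109.0, were dim. CHAC1, which degrades glutathione, fell in MOLM13 (log2 fold change -0.49, SE 0.15, limma adjusted p = 0.0204), where its shBCAT1 arrays (85.6, 96.3 and 88.4) lay around the median probe value of 92.1, the level of dim probes. XPOT, the export receptor for tRNA, fell in HL-60 alone among the lines (log2 fold change -0.31, SE 0.10, limma adjusted p = 0.0336).

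**Figure D2:**
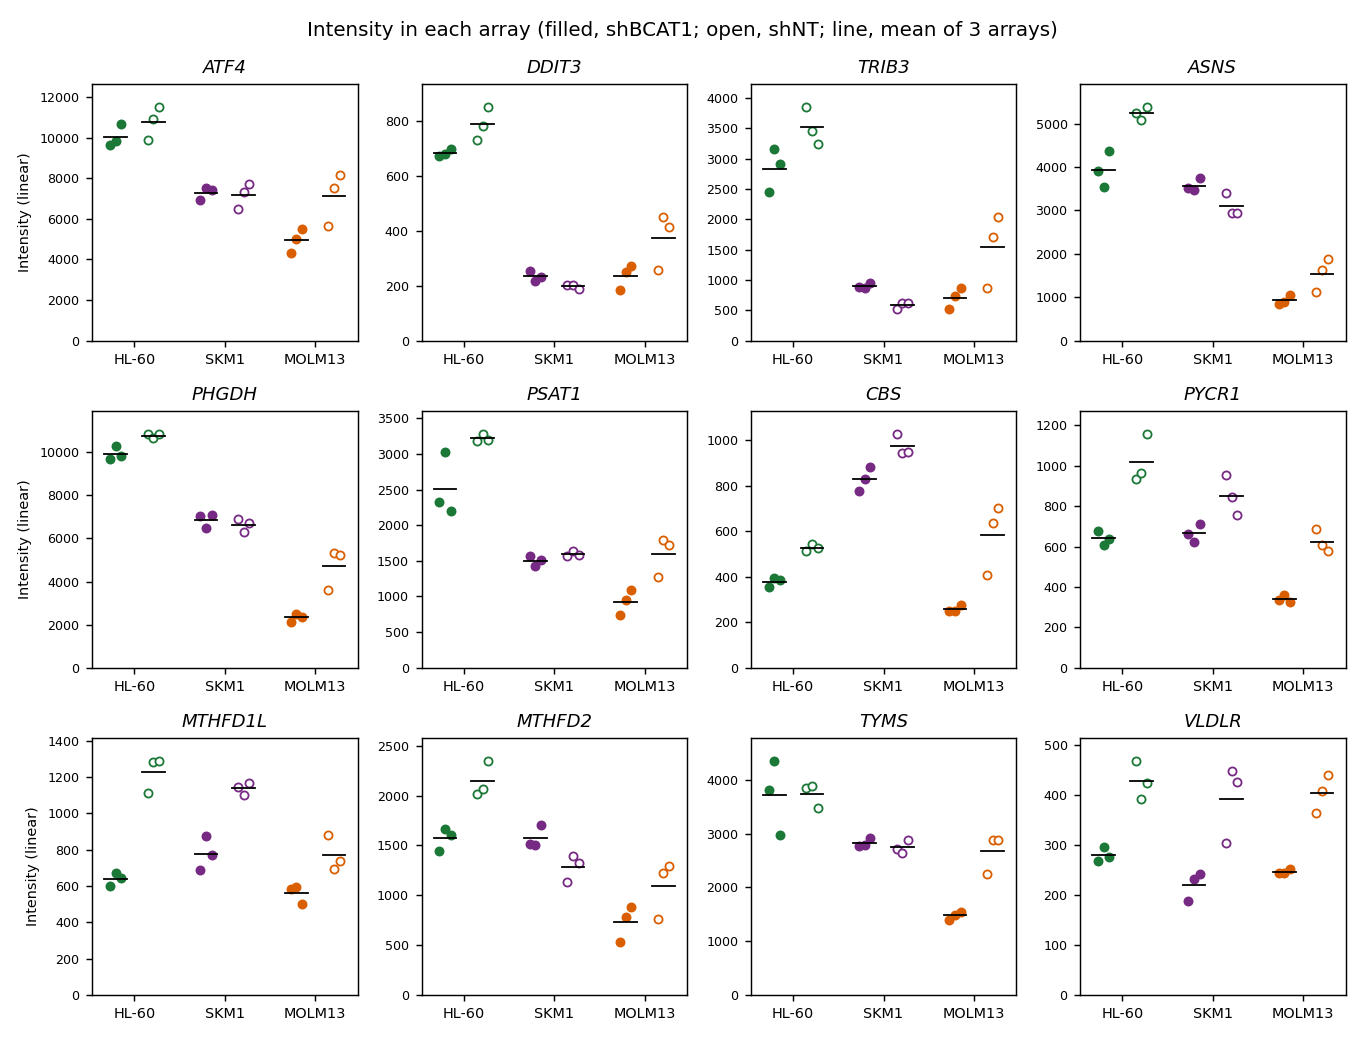
Linear intensity (vertical axes from 0) of 12 genes in each array, with filled circles for shBCAT1, open circles for shNT and a line at the mean of 3 arrays. TRIB3 in SKM1 has its shBCAT1 arrays at 860 to 954 above the shNT arrays at 520.2 to 626, while in MOLM13 they lie below; PYCR1, MTHFD1L and VLDLR are lower in all lines.

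Of the serine enzymes, PHGDH and PSAT1 fell in MOLM13, PSAT1 and PSPH fell in HL-60, and none passed in SKM1. PHGDH, which commits 3-phosphoglycerate to serine, had 2122, 2508 and 2365 with shBCAT1, against 3627, 5315 and 5235 with shNT in MOLM13 (log2 fold change -1.001, SE 0.11, limma adjusted p = 2.53e-07). In HL-60 it had 9697, 10274 and 9814 with shBCAT1, against 10843, 10654 and 10833 with shNT, all shBCAT1 arrays lower by a small margin (log2 fold change -0.12, SE 0.11, limma adjusted p = 0.518). In SKM1 it had 7037, 6489.9 and 7072 with shBCAT1, against 6901, 6279 and 6737 with shNT, overlapping (log2 fold change 0.05, SE 0.11, limma adjusted p = 0.890). The range for HL-60 (95% interval -0.34 to 0.10) does not reach the change seen in MOLM13.

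PSAT1, the glutamate-dependent transaminase of the pathway, had 735, 948 and 1089 with shBCAT1, against 1273, 1798 and 1717 with shNT in MOLM13 (log2 fold change -0.79, SE 0.13, limma adjusted p = 7.51e-05). Its intensities in HL-60 were 2319.5, 3022 and 2203 with shBCAT1, against 3182, 3277 and 3202 with shNT (log2 fold change -0.37, SE 0.13, limma adjusted p = 0.0486). SKM1 had 1564, 1433 and 1509 with shBCAT1, against 1567, 1638 and 1587 with shNT, without overlap and without passing (log2 fold change -0.09, SE 0.13, limma adjusted p = 0.810). The shBCAT1 arrays of PSAT1 were below the shNT arrays in all 3 lines, by less in SKM1. PSPH, the last enzyme, averaged 299 ± 32.4 in HL-60 with shBCAT1, against 364 ± 18.7 with shNT (SD, n = 3 each; log2 fold change -0.29, SE 0.09, limma adjusted p = 0.0306) and had a log2 fold change of 0.08 in MOLM13.

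All 7 folate enzymes fell in MOLM13, MTHFD1 and MTHFD1L fell in HL-60, and MTHFD1L fell in SKM1. MTHFD1L, the mitochondrial enzyme that releases formate, had 602, 669 and 645 with shBCAT1, against 1112, 1280.2 and 1287 with shNT in HL-60 (log2 fold change -0.94, SE 0.10, limma adjusted p = 2.53e-07). In SKM1 it had 689.7, 878 and 769 with shBCAT1, against 1146, 1103 and 1166 with shNT (log2 fold change -0.55, SE 0.10, limma adjusted p = 0.000396), and in MOLM13 583, 595 and 503 with shBCAT1, against 880.3, 693 and 736 with shNT (log2 fold change -0.46, SE 0.10, limma adjusted p = 0.00157). The groups did not overlap in any line. MTHFD1, the trifunctional cytosolic enzyme, had 198, 235 and 201 with shBCAT1, against 307, 355 and 371 with shNT in MOLM13 (log2 fold change -0.70, SE 0.09, limma adjusted p = 1.77e-06). HL-60 gave 285, 283 and 285 with shBCAT1, against 324, 350.3 and 350.4 with shNT (log2 fold change -0.26, SE 0.09, limma adjusted p = 0.0349), and SKM1 had 262, 289 and 284 with shBCAT1, against 298, 264 and 294 with shNT (log2 fold change -0.03, SE 0.09, limma adjusted p = 0.913). MTHFD1 was thus lower without overlap in HL-60 and MOLM13 and overlapped in SKM1.

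TYMS, thymidylate synthase, which uses a folate-borne carbon to make the thymine nucleotide, had 1397, 1491 and 1549.8 with shBCAT1, against 2242, 2885 and 2886 with shNT in MOLM13 (log2 fold change -0.84, SE 0.11, limma adjusted p = 4.13e-06). In HL-60 the arrays overlapped widely, at 3815, 4349 and 2986 with shBCAT1, against 3847, 3898 and 3479 with shNT (log2 fold change -0.02, SE 0.11, limma adjusted p = 0.919). In SKM1 they were 2781, 2793 and 2927 with shBCAT1, against 2713, 2645 and 2878 with shNT (log2 fold change 0.05, SE 0.11, limma adjusted p = 0.901). TYMS is also a gene of the S phase of the cell cycle, and the cycle was not measured here. MTHFD2, the mitochondrial dehydrogenase of the same step chain and a known ATF4 target, averaged 734 ± 185 with shBCAT1 against 1094 ± 289 with shNT in MOLM13 (SD, n = 3 each; log2 fold change -0.57, SE 0.16, limma adjusted p = 0.0132). SHMT1, the cytosolic enzyme that moves a carbon from serine to folate, fell in MOLM13 (log2 fold change -0.57, SE 0.10, limma adjusted p = 0.000165), as did its mitochondrial form SHMT2 (log2 fold change -0.37, SE 0.08, limma adjusted p = 0.00102). ALDH1L2, a mitochondrial formyl-folate dehydrogenase, was dim, with arrays of 88.6, 91.3 and 97.2 with shBCAT1 and 107, 114 and 116 with shNT in MOLM13 (log2 fold change -0.28, SE 0.09, limma adjusted p = 0.0219).

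The secreted and surface targets included the deepest fall. STC2, stanniocalcin 2, a secreted glycoprotein induced by ATF4, had 348, 363 and 449.9 with shBCAT1, against 891, 978 and 1083 with shNT in HL-60 (log2 fold change -1.35, SE 0.16, limma adjusted p = 1.28e-06). In MOLM13 it had 95.5, 101 and 103 with shBCAT1, against 100.1, 184 and 175 with shNT (log2 fold change -0.57, SE 0.16, limma adjusted p = 0.0125), and the shNT replicate 1 array sat among the shBCAT1 arrays. SKM1 had 212, 189.8 and 185 with shBCAT1, against 213, 301 and 271 with shNT, where all shBCAT1 arrays were lower, the nearest pair being 212 with shBCAT1 and 213 with shNT, without passing (log2 fold change -0.41, SE 0.16, limma adjusted p = 0.120). VLDLR, a lipoprotein receptor that ATF4 is known to induce, had 188, 231 and 242 with shBCAT1, against 304, 449 and 425 with shNT in SKM1 (log2 fold change -0.82, SE 0.12, limma adjusted p = 2.54e-05). In HL-60 it had 269, 295 and 276 with shBCAT1, against 467, 393 and 424 with shNT (log2 fold change -0.61, SE 0.12, limma adjusted p = 0.000496), and MOLM13 gave 244, 244 and 252 with shBCAT1, against 365, 407 and 439 with shNT (log2 fold change -0.71, SE 0.12, limma adjusted p = 9.16e-05). The 95% intervals of VLDLR overlapped over the 3 lines, and the F test of a difference between them did not pass (limma adjusted p = 0.671).

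Some of these calls rest on single arrays. In HL-60, the call ended without 1 of the HL-60 arrays for ASNS (shBCAT1 replicates 1 or 2, shNT replicates 1 or 3; limma adjusted p 0.0561 to 0.119), MTHFD1 (any shBCAT1 replicate, shNT replicates 2 or 3; 0.0689 to 0.102), PSPH (shBCAT1 replicates 1 or 3, shNT replicates 1 or 3; 0.0543 to 0.176) and XPOT (shBCAT1 replicates 1 or 3, shNT replicates 1 or 2; 0.0551 to 0.240). Without shBCAT1 replicate 1 the log2 fold change of XPOT was -0.19. That of PSAT1 ended without any HL-60 array but shBCAT1 replicate 2, and also without any SKM1 array or MOLM13 shBCAT1 replicate 2 (0.0577 to 0.205). The SKM1 call of PYCR1 ended without shBCAT1 replicates 1 or 2 or shNT replicates 1 or 2 of that line (0.0579 to 0.144). In MOLM13 the calls of ALDH1L2 (shBCAT1 replicates 1 or 2, shNT replicates 2 or 3; 0.0620 to 0.0845), CHAC1 (shBCAT1 replicates 1 or 3, shNT replicates 2 or 3; 0.0546 to 0.152), MTHFD2 (shBCAT1 replicate 1, shNT replicates 2 or 3; 0.0876 to 0.135), PPP1R15A (shBCAT1 replicates 1 or 2, shNT replicates 2 or 3; 0.0548 to 0.0799) and STC2 (shNT replicates 2 or 3; 0.0847 to 0.113) ended likewise. MTHFD2 had a log2 fold change of -0.35 in MOLM13 without shBCAT1 replicate 1, and CTH had -0.34 without shNT replicate 3 and still passed. With the mean of all probes of a gene, the HL-60 calls of ATF3 (limma adjusted p = 0.0845) and PSAT1 (0.139) also ended; their other probes averaged 80.9 to 82.9 units, below the median of all probe values. Under that setting the falls still passed but were smaller by over 1.5 times for PYCR1 (-0.27), CTH (-0.23) and VLDLR (-0.26) in HL-60, for VLDLR in SKM1 (-0.49), and in MOLM13 for ATF4 (-0.32), PYCR1 (-0.28), CTH (-0.30), PSAT1 (-0.40), SHMT1 (-0.23) and VLDLR (-0.33), all log2 fold changes. With the arrays of 1 line alone, those of XPOT, PSPH and MTHFD1 in HL-60 and of CHAC1, MTHFD2 and STC2 in MOLM13 ended (0.0621 to 0.124). PSPH and MTHFD1 also lost the call with array weights (0.0645 and 0.0592) and MTHFD1 with an intensity trend (0.0523). PSAT1 lost it with median scaling, normexp or no filter on dim genes (0.0546 to 0.0583).

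Without the low MOLM13 control array the log2 fold change in MOLM13 was lower for 23 of the 31 genes, those for which that array was the lowest and where leaving it out can only lower the value. Without shNT replicate 1, 22 genes fell (11.7% of all genes), ATF3 joining at a log2 fold change of -0.34. CHAC1 then had -0.76, against -0.49 with all arrays. ATF4 had -0.67 without that array. Without both arrays numbered 1, chosen after seeing the data, 21 genes fell (10.1% of all genes), with ATF3 in and ALDH1L2 out. The log2 fold change was then -0.58 for ATF4 and -0.73 for CHAC1, smaller falls than without the control array alone. Without shBCAT1 replicate 1 alone, 17 genes fell (8.77% of all genes), PPP1R15A, CHAC1, MTHFD2 and ALDH1L2 no longer passing (limma adjusted p 0.0548 to 0.135).

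**Figure D3:**
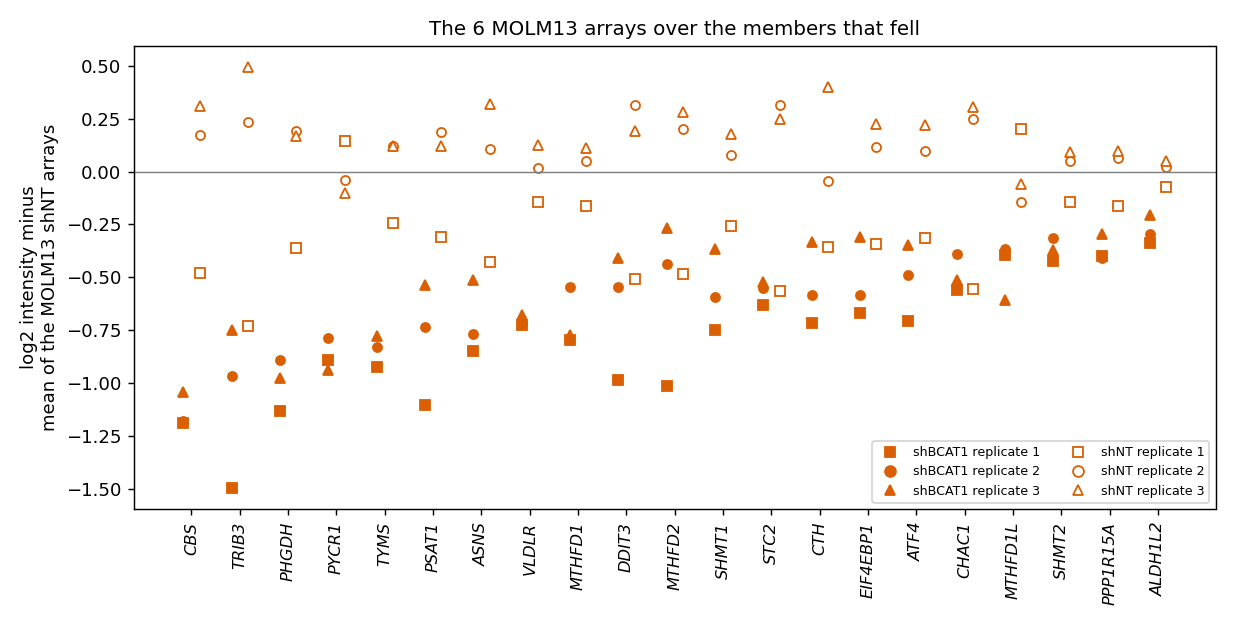
The 6 MOLM13 arrays for the 21 genes that fell, as log2 intensity minus the mean of the shNT arrays (vertical axis); filled symbols are shBCAT1, open symbols shNT, and shapes mark the replicate number. Open and filled squares (replicate 1) lie lowest in their group for most genes, and shNT replicate 1 of STC2 and CHAC1 lies with the shBCAT1 arrays.

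The response differed between lines for 20 of the 31 genes (F test in limma, adjusted p under 0.05), where 18% of all genes differed. Without SKM1 shBCAT1 replicate 3 the count was 13. The smallest adjusted p was that of PHGDH (3.62e-05), followed by TYMS (0.000262) and TRIB3 (0.000621). Set against SKM1, the response in MOLM13 was lower for 15 genes and higher for none (4.75% and 5.36% of all genes), with a median difference of -0.41 over the set and 0.01 over all genes. For TRIB3 that difference was -1.68 (limma adjusted p = 0.000342), for PHGDH -1.05 (limma adjusted p = 4.71e-05) and for ASNS -0.92 (limma adjusted p = 0.00157).

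Between SKM1 and HL-60, the response was higher in SKM1 for 5 genes and lower for none (2.07% and 4.34% of all genes). The 5 genes were ATF5 (0.66, limma adjusted p = 0.000843), ATF3, EIF4EBP1, ASNS and STC2 (0.94, limma adjusted p = 0.0121). ATF3 was dim in SKM1, with arrays from 107 to 124 over both groups, where the median of all probe values was 92.1. Between MOLM13 and HL-60, the set split: 6 genes were lower in MOLM13 (PPP1R15A, CBS, PHGDH, SHMT1, MTHFD1 and TYMS) and 4 were higher (ATF5, CEBPG, MTHFD1L and STC2), against 8.02% and 6.57% of all genes. The largest difference of the first kind was PHGDH (-0.88, limma adjusted p = 0.000229) and of the second STC2 (0.78, limma adjusted p = 0.0216). In MOLM13 the shBCAT1 arrays of STC2 (95.5, 101 and 103) lay near the median of all probe values, 92.1. How far this limited its fall there was not tested. BCAT1 itself fell by less in MOLM13 than in HL-60 (difference of the log2 fold changes 0.57, limma adjusted p = 0.00179) or in SKM1 (0.49, limma adjusted p = 0.00818). Mean BCAT1 intensity with shBCAT1 was 157 for MOLM13, 145 for HL-60 and 127 for SKM1, where the median of all probe values was 92.1. With shNT it was 1071 for MOLM13, against 1468 for HL-60 and 1221 for SKM1. How far the lower control level, or the nearness to that median, made the fall in MOLM13 smaller was not tested. The part of the smaller BCAT1 fall in the responses was not tested.

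The count in SKM1 depended on how the spread was estimated. With the SKM1 arrays fitted alone, 12 genes passed: ATF5, DDIT3, EIF2S1, PPP1R15A, TRIB3, ASNS and MTHFD2 rose, and PYCR1, CBS, MTHFD1L, STC2 and VLDLR fell. Over all genes that fit called 3004 (8.68% rose and 10.97% fell), against 1706 in the fit over all lines. With array weights 4 genes of the set rose and 4 fell, where 8.97% of all genes rose and 11.3% fell. Under every alternative in which a gene of the set rose in SKM1, that gene was among the 7 of the fit to SKM1 alone, while MTHFD1L and VLDLR fell under all alternatives.

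With the control hairpin alone, the lines differed in most of the set: 26 of 31 genes differed by the F test, against 61.4% of all genes. HL-60 had the higher level of most. In SKM1 18 genes were lower than in HL-60 and 4 higher (24.1% and 24.6% of all genes), and in MOLM13 17 were lower than in HL-60 and 3 higher (24.7% and 19.5%). Between MOLM13 and SKM1, 11 were higher and 9 lower in MOLM13 (21.9% and 25.8%). The serum was 10% for HL-60 and 20% for the others, so for HL-60 line and serum cannot be told apart.

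The widest gap was ATF5, which averaged 136 ± 4.63 in SKM1, 540.3 ± 33.3 in MOLM13 and 2423 ± 298 in HL-60 (SD, n = 3 each; SKM1 minus HL-60, log2 fold change -4.15, SE 0.08, limma adjusted p = 3.69e-22). ATF4 averaged 7161 ± 624 in SKM1, 7106 ± 1310.5 in MOLM13 and 10775 ± 826 in HL-60 (SD, n = 3 each), and SKM1 and MOLM13 did not differ beyond their spread (limma adjusted p = 0.892). TRIB3 averaged 589.5 ± 60.1 in SKM1, 1535 ± 599.6 in MOLM13 and 3519 ± 307 in HL-60 (SD, n = 3 each), a falling order that ATF5 and DDIT3 share, from HL-60 over MOLM13 to SKM1. For ASNS the order was different, with 1545 ± 388 in MOLM13, 3091 ± 265 in SKM1 and 5243 ± 145 in HL-60 (SD, n = 3 each). PHGDH had the order of ASNS, at 4726 ± 952 in MOLM13, 6639 ± 323 in SKM1 and 10777 ± 106 in HL-60 (SD, n = 3 each). CBS was highest in SKM1 (SKM1 minus HL-60, log2 fold change 0.88, SE 0.13, limma adjusted p = 2.44e-06), and PPP1R15A was lowest there (MOLM13 minus SKM1, log2 fold change 2.42, SE 0.11, limma adjusted p = 3.93e-15). VLDLR, which fell in every line, did not pass in any pair of lines (limma adjusted p 0.360 to 0.753).

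**Figure D4:**
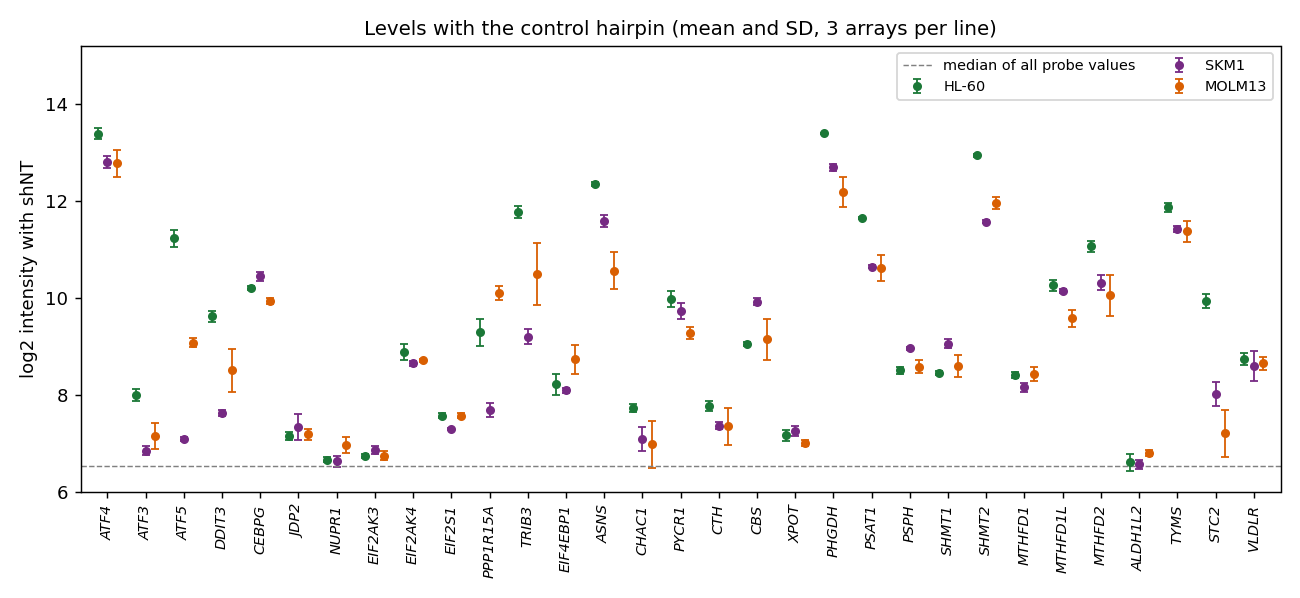
Log2 intensity of the 31 genes with shNT (vertical axis; mean and SD of 3 arrays) in HL-60, SKM1 and MOLM13, in the order of their roles; the dashed line is the median of all probe values. The widest spacing is that of ATF5, while NUPR1, EIF2AK3 and ALDH1L2 lie near the line; different genes are different probes and are not to be ranked.

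Other genes known as ATF4 targets include amino acid transporters and tRNA synthetases. Their list too was chosen with earlier results of these data known. Of 25 tested, 16 fell and 2 rose in MOLM13, 11 fell and 1 rose in HL-60, and 2 fell and none rose in SKM1. Over all genes 10.7% fell and 10.3% rose in MOLM13, 8.87% and 10.0% in HL-60, and 6.49% and 4.67% in SKM1, so the SKM1 count lies near the background. In MOLM13 the largest falls were in DDIT4 (REDD1, a brake on mTORC1; log2 fold change -1.41, SE 0.44; mean 701 with shBCAT1 and 2282 with shNT), SLC7A1 (a carrier of cationic amino acids; -1.11, SE 0.11; mean 539 with shBCAT1 and 1161 with shNT) and SLC7A5 (LAT1, the leucine carrier; -0.96, SE 0.11; mean 1086 with shBCAT1 and 2116 with shNT). The SE of DDIT4 was 0.44, so that fall is imprecise. In HL-60 they were SESN2 (a leucine sensor; log2 fold change -0.56, SE 0.12; mean 279 with shBCAT1 and 411 with shNT), SLC7A5 (-0.55, SE 0.11; mean 1872 with shBCAT1 and 2718 with shNT) and SLC1A5 (the glutamine carrier ASCT2; -0.53, SE 0.12; mean 747 with shBCAT1 and 1077 with shNT). In SKM1 they were NARS1, asparaginyl-tRNA synthetase (-0.45, SE 0.10; mean 899.6 with shBCAT1 and 1235 with shNT), and MAP1LC3B, an autophagosome protein (-0.32, SE 0.10; mean 411 with shBCAT1 and 513 with shNT).

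Of 16 tested further enzymes and carriers of folate, glycine and methionine, 4 fell and 1 rose in MOLM13, 5 fell and 2 rose in HL-60, and 3 fell and 1 rose in SKM1. Beside the same shares over all genes, the rises in this list lie near the background in each line. MAT2B, a regulatory subunit of S-adenosylmethionine synthesis, fell in each line, MOLM13 included (log2 fold change -0.68, SE 0.14; mean 763 with shBCAT1 and 1180.0 with shNT), as in HL-60 (-0.67, SE 0.14; mean 632 with shBCAT1 and 1011 with shNT) and SKM1 (-0.86, SE 0.14; mean 841 with shBCAT1 and 1522 with shNT). GART, an enzyme of purine synthesis that takes carbon from folate, was among the largest falls in MOLM13 (-0.61, SE 0.08; mean 1249.7 with shBCAT1 and 1902 with shNT). SLC19A1, the reduced folate carrier, fell in MOLM13 (-0.42, SE 0.09; mean 292 with shBCAT1 and 391 with shNT) and in HL-60 (-0.42, SE 0.09; mean 369 with shBCAT1 and 492 with shNT). In SKM1, MTHFS, which returns 5-formyl-folate to the cycle, rose (0.73, SE 0.09; mean 898 with shBCAT1 and 542 with shNT) and MAT2A, the catalytic partner of MAT2B, fell (-0.46, SE 0.14; mean 2983 with shBCAT1 and 4124 with shNT). ALDH1L1, the cytosolic relative of ALDH1L2, rose in HL-60 (0.49, SE 0.12; mean 819 with shBCAT1 and 577 with shNT).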

How the data were processed

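Total RNA of 18 samples was measured on 1-colour Illumina BeadChips. The deposited table holds linear probe intensity values, which the authors had already brought to a common scale. Their method, software and background treatment are not given in the sources used here, and the smallest value was 60.4. If background remains, folds of dim genes are understated. Of 48107 probes, 30113 had 1 symbol in the platform annotation, 8 had several and 17986 were unlisted; 15 values in 7 probes were missing. Values were taken to log2 with no further normalization.

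A gene was tested when its mean log2 value in any group passed the median over all probes (92.1 on the linear scale), leaving 15291 genes and 4755 dim ones. limma 3.58.1 in R 4.3.3 fitted a mean for each of 6 groups (12 residual and 10.8 prior degrees of freedom), with Benjamini-Hochberg adjustment over all tested genes at 0.05; F tests compared the lines. The procedure was tested on simulated data. Figures used matplotlib 3.10.9 in Python 3.11.15.

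Every array is given for BCAT1, ATF4 and genes that passed with at least 1.5-fold in a line, apart from examples; at most 3 genes of each pathway list and line are named, from those with the largest change. The genes and lists were chosen with earlier results of these data known. Promoter sequences are from RefSeq. Alternatives were quantile, median and normexp scaling, other filters, the mean of all probes, array weights, an intensity trend, a replicate block, 1 line alone and each array left out. Deviations from the group means of same-numbered arrays correlated at 0.277, 0.131 and 0.382 in MOLM13, against -0.304 to -0.0369 for its other pairs. In HL-60 same-numbered pairs gave 0.0151 to 0.161 and other pairs -0.202 to 0.127. In SKM1 same-numbered pairs gave -0.141 to 0.0404 and other pairs -0.0419 to 0.142. The numbers may thus pair the samples in MOLM13. The reported fit takes no account of such a pairing, and the replicate block does.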

Additional observations from a re-analysis of the deposited data

Results flagged for a closer look

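For 20 of the 31 genes the response to shBCAT1 differed between the 3 lines by the F test over the lines in limma, adjusted over all genes. The part of background, spread and array in these differences was not tested. For HL-60, line and serum cannot be told apart.

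The serine and folate enzymes gave adjusted p values of 3.62e-05 for PHGDH, 0.000262 for TYMS and 0.00100 for MTHFD1. They were 0.0153 for SHMT1, 0.0159 for MTHFD2, 0.0246 for PSAT1, 0.0360 for MTHFD1L and 0.0370 for SHMT2. MTHFD1L was lowered most in HL-60 (log2 fold change -0.94), the others most in MOLM13.

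The transcription factors gave adjusted p values of 0.000878 for ATF5, 0.0130 for DDIT3, 0.0236 for CEBPG, 0.0398 for ATF3 and 0.0417 for ATF4. The log2 fold change of ATF5 was -0.41 (HL-60), 0.25 (SKM1) and close to 0 (MOLM13). Feedback genes gave 0.000621 for TRIB3, 0.00780 for PPP1R15A and 0.0343 for EIF4EBP1. Amino acid and secreted targets gave 0.00207 for CBS, 0.00245 for ASNS, 0.0264 for PYCR1 and 0.00867 for STC2. The log2 fold change of STC2 was -1.35 in HL-60, against -0.41 in SKM1 and -0.57 in MOLM13. In MOLM13 its shBCAT1 arrays lay near the median of all probe values.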

How the results depend on the processing

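No result reversed its sign while called. Genes of the set that passed in HL-60 numbered 13 to 17 over the alternatives and 10 to 16 with 1 array left out (15 as reported), in MOLM13 18 to 21 and 16 to 22 (21 as reported), and BCAT1 passed in all of them. In SKM1 the count of 3 became 5 with quantile normalization, 6 with the stricter filter on dim genes, 5 with the mean of all probes, 8 with array weights, 12 with the arrays of that line alone and 8 without both MOLM13 arrays numbered 1, and 2 to 5 with 1 array left out (5 without MOLM13 shNT replicate 1). Genes called in SKM1, 1706 as reported, numbered 3098 with array weights, 3004 with that line alone and 1188 to 1909 with 1 array left out. The count of 20 genes whose response differed between lines was 13 to 23 with 1 array left out, 13 being the count without SKM1 shBCAT1 replicate 3. In the mean of the lines, the count was 16 to 23 over the alternatives and 16 to 22 with 1 array left out (18 as reported), and the control levels differed for 21 to 27 genes (26 as reported). The causes of these moves were not tested. The dim genes ALDH1L2, NUPR1 and EIF2AK3 lie near the median of all probe values. The same holds for CHAC1 and STC2 with shBCAT1 in MOLM13 and for ATF3 in SKM1. How far this limited their changes was not tested.

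With the replicate number as a block, 17 genes of the set fell in HL-60 (10.0% of all genes) and 21 in MOLM13 (11.6%). The MOLM13 genes were those reported for that line. In SKM1 6 passed: TRIB3 and MTHFD2 rose (5.51% of all genes), and PYCR1, MTHFD1L, STC2 and VLDLR fell (7.36%). With the block, the response differed for 21 genes and the control levels for 21. The shares over all genes are not given here for these F tests with the block.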

Other observations

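The unfolded protein response of the endoplasmic reticulum has a branch through PERK and ATF4 and other branches that supply chaperones. Of 17 tested genes of it, 3 fell and 1 rose in MOLM13, none fell and 3 rose in HL-60, and 2 fell and none rose in SKM1. Over all genes 10.7% fell and 10.3% rose in MOLM13, 8.87% fell and 10.0% rose in HL-60, and 6.49% fell and 4.67% rose in SKM1. CALR, calreticulin, a calcium-binding chaperone, fell in MOLM13 (log2 fold change -0.64, SE 0.08; mean 2317 with shBCAT1 and 3599 with shNT) and in SKM1 (-0.49, SE 0.08; mean 1763 with shBCAT1 and 2474 with shNT). XBP1, a transcription factor of this response, fell in MOLM13 (-0.35, SE 0.10; mean 3738 with shBCAT1 and 4766 with shNT), where PDIA6, a disulfide isomerase, rose (0.40, SE 0.09; mean 1155 with shBCAT1 and 878 with shNT). In HL-60 DNAJB11 (0.47, SE 0.09; mean 3578 with shBCAT1 and 2575 with shNT) and DNAJC3 (0.39, SE 0.09; mean 176 with shBCAT1 and 135 with shNT), co-chaperones of that compartment, rose.

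Of 11 tested further genes of the eIF2 machinery, 2 fell and 2 rose in MOLM13, 3 fell in HL-60 and none passed in SKM1, counts that the same shares over all genes put near the background in MOLM13. EIF2B3, a subunit of the eIF2 exchange factor, fell in MOLM13 (log2 fold change -0.36, SE 0.11; mean 180.1 with shBCAT1 and 231 with shNT) and in HL-60 (-0.41, SE 0.11; mean 240.0 with shBCAT1 and 318 with shNT). GCN1, an activator of GCN2, fell in MOLM13 (-0.34, SE 0.08; mean 957 with shBCAT1 and 1217 with shNT). EIF2S2, the beta subunit of eIF2, fell in HL-60 (-0.38, SE 0.09; mean 277 with shBCAT1 and 361 with shNT). The difference between lines was not tested for these lists.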
